A study of Drosophila melanogaster with 3 samples.

Results

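The signal recognition particle (SRP) and its receptor were examined as binding targets of Xbp1 in Drosophila melanogaster embryos. They comprised 8 of the 13945 protein-coding genes in the annotation. The genes were chosen by name for their role in protein targeting, with earlier results of these data known. SrpRalpha and SrpRbeta encode the receptor, and Srp54k, Srp68, Srp72, Srp19, Srp9 and Srp14 encode the 6 proteins of the particle. The similarly named Srp54, a splicing factor, is not a subunit.

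SRP is an assembly of an RNA and proteins that recognises the signal sequence of a secretory or membrane protein as it leaves the ribosome, slows translation and brings the ribosome to the endoplasmic reticulum (ER). At the ER membrane the particle meets its receptor, both partners hydrolyse GTP, and the nascent chain passes to the Sec61 channel. Xbp1 is a transcription factor of the unfolded protein response, the programme that enlarges the secretory capacity of the ER when unfolded proteins accumulate. In embryos, secretory tissues such as the salivary gland rely heavily on this route.

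Xbp1 was mapped by chromatin immunoprecipitation and sequencing (ChIP-seq) in 3 biological replicates of 1 group, with no second condition. All 3 came from whole embryos of mixed sex, 0 to 24 h old, of the strain Xbp1-GFP, a stable transgenic line in which GFP is fused to the C terminus of Xbp1. Chromatin was sonicated to 200-800 bp, and the antibody recognised GFP, so the peaks report the tagged protein. Whole embryos mix all tissues and ages, and the cells in which Xbp1-GFP occupied a gene cannot be told apart. The thresholded list held 7291 peaks in the dm6 build, selected by reproducibility between replicates (irreproducible discovery rate), and replicates 1, 2 and 3 had 21686, 30000 and 23357 listed peaks, background entries included. Replicate 2 differed from the others in the ranks of the receptor genes, and those results are given with and without it. Depth in reads is unknown and the control sample was not analysed here.

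A gene was called bound when the summit of a thresholded peak lay within 500 bp of an annotated start. Of the 8 genes, 7 were bound, which is 87.5% with a Clopper-Pearson exact 95% interval of 47.3 to 99.7 that covers counting error only. Of all protein-coding genes, 30.4% were bound by the same rule. Both receptor genes and 5 of the 6 particle genes were bound, and Srp9 was the exception. The same 7 genes had a peak in the gene or within 2 kb of it, against 48.2% of all genes. They also had a promoter summit in each of the 3 replicate lists when every list was reduced to its 7291 strongest peaks, against 24.0% of all genes.

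**Figure D1:**
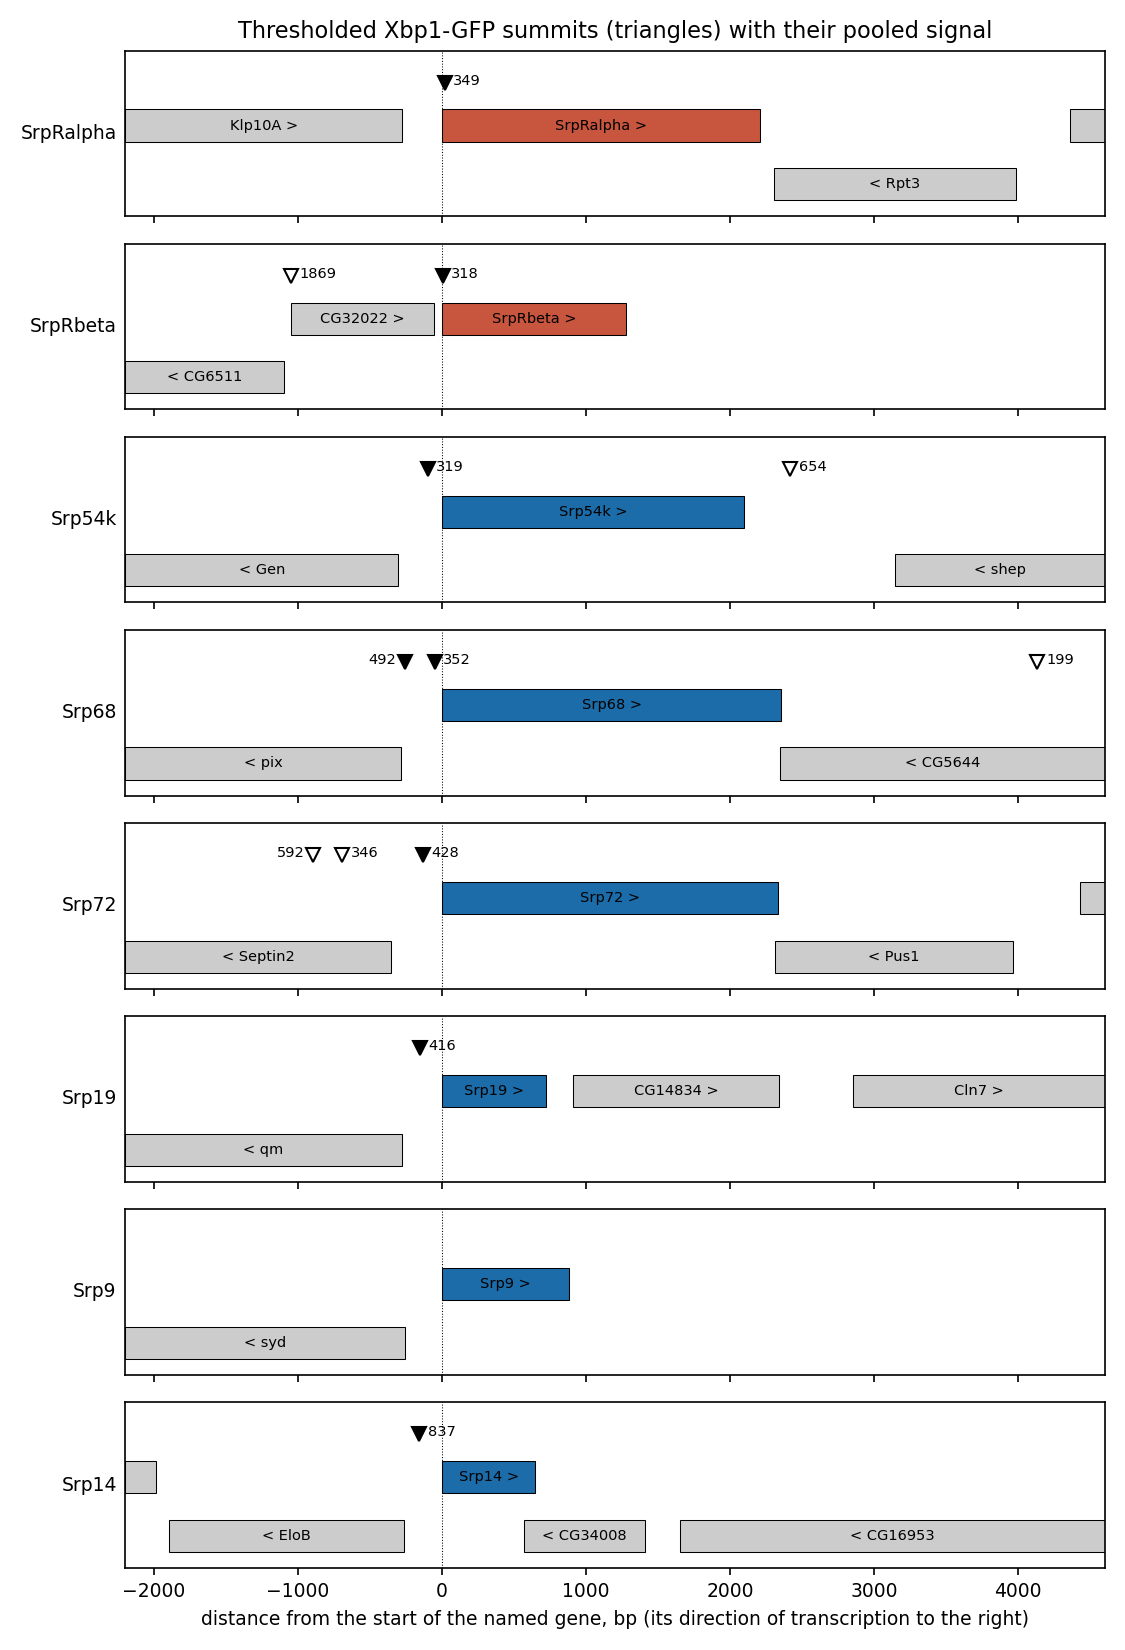
Thresholded Xbp1-GFP summits around the 8 genes, drawn to scale with each gene's start at 0 and its transcription to the right; the x axis is distance in bp. Filled triangles are promoter summits of the named gene, open triangles are other summits in it or within 2 kb, and the numbers are the authors' pooled signal; receptor genes are red, particle genes blue and neighbouring protein-coding genes grey. The promoter summits of the receptor genes lie at their starts, those of the bound particle genes lie in the gap to a divergently transcribed neighbour, and Srp9 has none; the open triangles lie elsewhere.

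The genomic setting separated the receptor from the particle. Each of the 6 particle genes started head to head with another protein-coding gene, with 253 to 355 bp between the starts, an arrangement found at 33.3% of all protein-coding genes when starts up to 1000 bp apart were counted. Neither receptor gene had such a partner. Of head-to-head genes in the whole annotation 52.7% were bound, and of the others 19.3%. The counts of 5 of 6 particle genes and 2 of 2 receptor genes therefore have different backgrounds. The 52.7% covers starts up to 1000 bp apart, and no share is given for gaps as short as those of the particle genes. At the 5 bound particle genes the thresholded promoter summits lay in the gap between the starts, hence within 500 bp of the partner's start. At 59.3% of all bound genes the promoter summit also lay within 500 bp of another gene's start, head to head or not. Which gene of such a pair a peak serves cannot be told apart from these lists.

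Sequences are printed in lower case, 5′ to 3′ along the strand of the named gene, from the Release 6 genome (dm6) and leave out annotated UTRs except for a single motif. The first set is from the receptor genes, whose summits lay just downstream of their starts. The SrpRalpha site at chrX:11129054-11129083 (minus strand) carries, in capitals, the UPR element TGACGTGG, the sequence that mammalian XBP1 and ATF6 bind. The stretch before the SrpRalpha start is chrX:11129088-11129188 (minus strand), in which capitals mark TATCGATA, the DNA replication-related element (DRE) bound by DREF at many housekeeping promoters. The stretch before SrpRbeta, chr3L:8720226-8720279 (minus strand), reaches back to the end of the neighbouring transcript and holds none of the 5 motifs searched.
SrpRalpha site: cgctaggcaagTGACGTGGaacgtgtggca
SrpRalpha upstream: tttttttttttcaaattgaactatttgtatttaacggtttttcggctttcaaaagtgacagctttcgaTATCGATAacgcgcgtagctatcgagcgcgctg
SrpRbeta upstream: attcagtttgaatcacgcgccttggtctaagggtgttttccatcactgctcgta

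The second set shows the summits of the particle genes, to compare them with the receptor. They are Srp54k at chr3L:5152528-5152628 (plus strand), Srp68 at chr3L:8974766-8974839 and chr3L:8974945-8975045 (both plus strand), Srp72 at chr3R:20588527-20588627 (plus strand), Srp19 at chr3L:7348136-7348236 (minus strand) and Srp14 at chr3R:20579905-20580005 (plus strand). Each runs 50 bp to both sides of the summit, shortened at the first Srp68 summit where the UTR of pix begins. Capitals mark TATCGATA, which only the first Srp68 sequence holds.
Srp54k: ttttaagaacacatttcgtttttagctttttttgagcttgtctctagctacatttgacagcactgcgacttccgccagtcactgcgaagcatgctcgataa
Srp68 near pix: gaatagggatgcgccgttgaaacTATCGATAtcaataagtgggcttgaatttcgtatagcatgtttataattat
Srp68 near its start: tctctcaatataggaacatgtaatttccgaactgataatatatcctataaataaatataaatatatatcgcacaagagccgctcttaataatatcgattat
Srp72: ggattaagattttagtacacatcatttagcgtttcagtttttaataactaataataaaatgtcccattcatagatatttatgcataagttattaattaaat
Srp19: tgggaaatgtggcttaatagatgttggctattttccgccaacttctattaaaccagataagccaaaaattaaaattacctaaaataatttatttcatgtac
Srp14: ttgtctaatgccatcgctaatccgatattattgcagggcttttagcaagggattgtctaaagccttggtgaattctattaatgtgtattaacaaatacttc
The bases before the start of Srp9, which was not bound, are chr3L:7936272-7936372 (plus strand) and hold none of the 5 motifs.
Srp9: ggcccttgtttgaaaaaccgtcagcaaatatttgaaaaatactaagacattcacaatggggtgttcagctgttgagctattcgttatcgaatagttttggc

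SrpRalpha encodes the receptor GTPase that docks the particle at the membrane. The gene (FBgn0010391) lies at chrX:11126877-11129087 on the minus strand, downstream of Klp10A, which is transcribed the same way and ends 275 bp before it. Its single thresholded peak had its summit at position 11129069, in the 5' UTR, 18 bp inside the gene, with a signal of 349 (the authors' value, scale not stated), rank 3249 of 7291. In the replicate lists the summit lay 22, 9 and 3 bp inside the gene, at signals of 84.3, 213 and 50.2 in replicates 1, 2 and 3. Signals of different lists are not on a common scale, and the ranks were 6390, 1301 and 5682. Among the 7291 strongest peaks of each replicate, it thus stood in the lower part in replicates 1 and 3 and in the upper part in replicate 2.

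SrpRbeta encodes the membrane-anchored partner GTPase of the receptor. The gene (FBgn0011509), at chr3L:8718949-8720225 on the minus strand, starts 55 bp downstream of the end of CG32022. Its promoter summit at 8720221 lay in the 5' UTR, 4 bp inside the gene, with a signal of 318 and rank 3662. The replicate ranks were 5804, 2194 and 4869, again best in replicate 2, with summits 24 bp upstream, 35 bp inside and 25 bp upstream of the start. A much stronger peak, of signal 1869 and rank 143, lay 1046 bp upstream of SrpRbeta. Its summit was 1 bp from the start of CG32022 and 53 bp from that of CG6511, and it is a promoter peak of those genes and not of SrpRbeta.

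Srp54k encodes the GTPase subunit that binds the signal sequence and the receptor. The gene (FBgn0010747) occupies chr3L:5152678-5154777 on the plus strand, and its start is 302 bp from that of Gen. The promoter summit at 5152578 was 100 bp upstream of Srp54k and 202 bp from the start of Gen, with a signal of 319 and rank 3654. Its ranks were 3217, 3033 and 5342 in replicates 1, 2 and 3, close together in the first pair and weaker in replicate 3. A second summit, at 5155093, lay 316 bp past the end of the gene between genes. At a signal of 654 and rank 1327, it stood higher in the list than the promoter peak.

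Srp68 and Srp72 form a heterodimer on the part of the particle that carries Srp54k. Srp68 (FBgn0035947, chr3L:8975046-8977401, plus strand) had a pair of promoter summits. One, at 8974789, was 257 bp upstream of Srp68 and 24 bp from the start of pix, with a signal of 492 and rank 2052. The other, at 8974995, was 51 bp upstream of Srp68 and 230 bp from pix, with a signal of 352 and rank 3216. The stronger of them is therefore nearer to pix, and in all 3 replicates the strongest summit lay on that side, 242, 213 and 244 bp upstream of Srp68. The replicate ranks were 1831, 2119 and 2610. A further, weak summit (signal 199, rank 6317) lay past the gene in an intron of CG5644 and was overlapped by peaks of 2 of the 3 replicates.

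Srp72 (FBgn0038810, chr3R:20588711-20591040, plus strand) shares its upstream gap with Septin2. The promoter summit at 20588577 lay 134 bp upstream of Srp72 and 221 bp from the start of Septin2, with a signal of 428 and rank 2510. The replicate ranks were 2739, 2019 and 2489, a narrow range. Its summits were more scattered, at 171, 38 and 89 bp upstream. Further summits within 2 kb were at 894 bp upstream in an intron of Septin2 (signal 592) and at 692 bp upstream in an exon of the antisense RNA gene asRNA:CR46044 (signal 346). A summit 2034 bp past the gene, of signal 271, fell just outside the 2 kb limit, and for the other 7 genes the nearest summit beyond the limit was 7053 to 21024 bp away.

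Srp19 encodes the subunit that helps the particle's RNA fold so that Srp54k can join. The gene (FBgn0015298, chr3L:7347310-7348034, minus strand) starts 279 bp from qm. Its only thresholded summit within 2 kb, at 7348186, was 152 bp upstream of Srp19 and 127 bp from the start of qm, with a signal of 416 and rank 2614. The replicates placed the summit at 152, 157 and 153 bp upstream, the tightest agreement of position among the 7 bound genes. Their ranks were 2980, 3294 and 1984.

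Srp14 and Srp9 form the heterodimer that binds the Alu end of the RNA and slows translation. Srp14 (FBgn0038808, chr3R:20580115-20580764, plus strand) had the strongest promoter peak of the 8 genes, with a summit at 20579955, a signal of 837 and rank 834. It lay 160 bp upstream of Srp14 and 105 bp from the start of EloB. Its ranks were 900, 811 and 807 in the 3 replicates and its summits 174, 159 and 167 bp upstream, so both measures varied little.

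Srp9 (FBgn0035827, chr3L:7936373-7937258, plus strand), the partner of Srp14, had no thresholded peak within 2 kb, and the nearest was 21024 bp away. It starts 253 bp from syd, in the same arrangement as the bound particle genes. The pooled list, which includes background entries, held a promoter entry 288 bp upstream with a signal of 97.9, a q-value of 0.0816 and rank 12564 of 27099. That entry lay beyond the start of syd, inside syd. The weakest thresholded peak had a signal of 172. Replicate 1 had a promoter entry of q-value 0.19, at 355 bp upstream and likewise inside syd. The strongest of 3 in replicate 2 had a q-value of 0.12, and replicate 3 had none. The entry of lowest q-value near Srp9 (0.0148) was in replicate 2, at 1069 bp past the gene. In these lists a promoter peak at Srp9 was thus not detected at a q-value of 0.05, which leaves occupancy below that level possible.

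**Figure D2:**
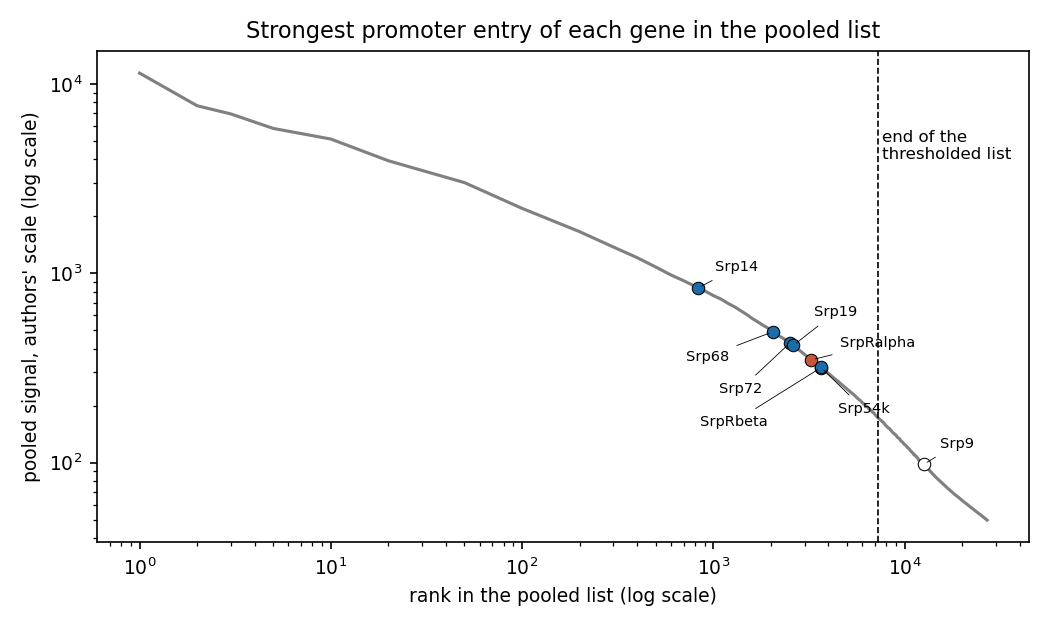
Authors' pooled signal (log scale) of the strongest promoter entry of each of the 8 genes against its rank in the pooled list of 27099 entries (log scale). The grey line is the whole list, the dashed line the end of the thresholded list at 7291; Srp14 stands highest at 837, 6 genes lie between 318 and 492, and Srp9 (open) lies past the line at 97.9.

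As a set, the promoter peaks were of ordinary strength. The 8 promoter summits, Srp68 contributing a pair, had a median signal of 384, against 354 (quartiles 241 and 627) over all 3478 thresholded promoter peaks. Their median distance from the start of the named gene was 117 bp. Measured to the nearest start of any gene, they lay 4, 18, 24, 51, 100, 105, 127 and 134 bp away. By that second measure the median over all promoter peaks was 98 bp. The −log10 q-value does not separate them, since 97.5% of the thresholded peaks shared the highest value of 4.15.

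Ranks expressed as a percentage of the 7291 strongest peaks in each replicate, where 0 is the strongest, placed the genes in order. Srp14 stood at 11.5 ± 0.721 (SD, n = 3), Srp68 at 30.0 ± 5.40, Srp72 at 33.1 ± 5.01 and Srp19 at 37.8 ± 9.38. Srp54k followed at 53.0 ± 17.6, SrpRbeta at 58.8 ± 25.7 and SrpRalpha at 61.1 ± 37.8. Srp14 was ahead of each of the other 6 in every replicate, with no overlap of ranges. Between the remaining neighbours in this order the ranges overlapped. Of the 21 pairs of genes, 8 had ranges that did not overlap, which were the 6 pairs with Srp14 and the pairs of Srp54k with Srp68 and with Srp72. The same share was not taken over pairs of all genes, so the count only describes these 7. The low place of the receptor genes rests on replicates 1 and 3: without replicate 2 SrpRalpha stood at 82.8 and SrpRbeta at 73.2.

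**Figure D3:**
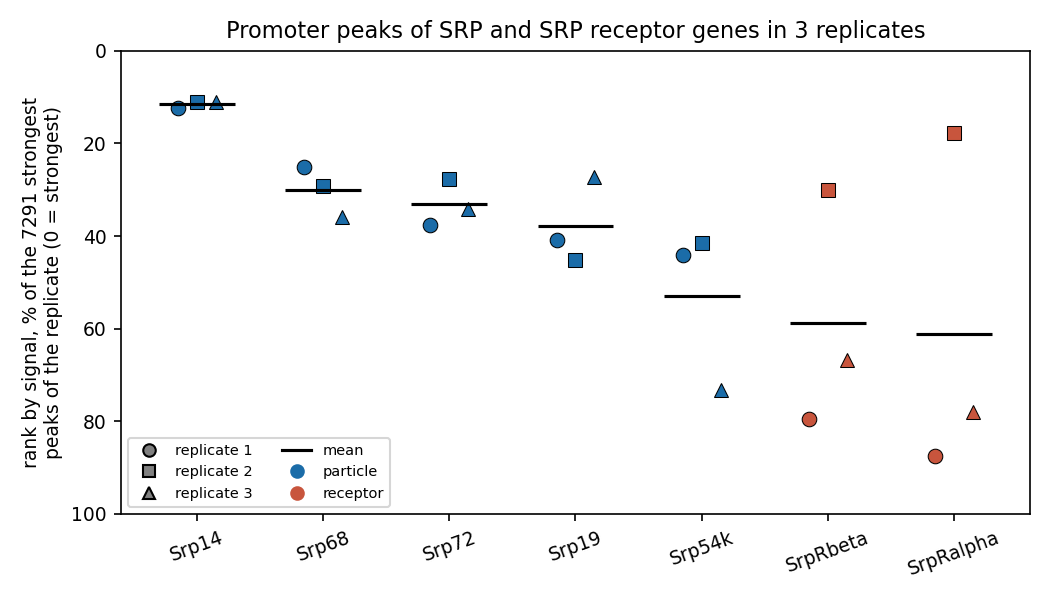
Rank by signal of the promoter peak of each bound gene, as a percentage of the 7291 strongest peaks of a replicate (y axis, 0 is the strongest), with one marker shape per replicate and a line at the mean. Srp14 stands at about the same height in all 3 replicates, while both receptor genes (red) stand far higher in replicate 2 than in replicates 1 and 3.

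The receptor genes were the members whose rank moved most between replicates. The better of a gene's ranks in replicates 1 and 3, divided by its rank in replicate 2, was 4.37 for SrpRalpha and 2.22 for SrpRbeta. It lay between 0.602 and 1.23 for the 5 bound particle genes. A ratio of at least 2, a limit chosen after these values were seen, was found at 4.78% of the 3349 genes with a promoter peak in all 3 equally long lists, and a ratio above 1 at 37.0% of those that also had a thresholded promoter peak.

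Base composition and the UPR element moved with this ratio. The promoter peaks of SrpRalpha and SrpRbeta had a GC content of 51.5% and 49.5% over the 101 bp at the summit, whereas the 6 particle summits ranged from 21.8% to 41.6%. A GC content at least as high as that of SrpRbeta was found at 12.2% of all thresholded promoter peaks. Of genes with such a peak, 15.3% had a ratio of at least 2, against 3.58% of genes with a peak of lower GC content. The GC limit is SrpRbeta's own value, so both receptor genes are counted in the 15.3%. Genes with the UPR element were not taken out of these shares, so the 2 groupings overlap. Of the 20 genes with TGACGTGG at the summit, SrpRalpha included, 15 had a ratio of at least 2, which is 75.0%, and all 20 had a ratio above 1. Some of these genes share a peak, and counted by peak 13 of 17 had a ratio of at least 2. The part of GC content, of the element or of replicate 2 as a library in the receptor ranks was not tested, and SrpRbeta had the ratio without the element.

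Among the promoter peaks SrpRalpha alone of the 8 genes had a full UPR element. TGACGTGG was searched on both strands within 50 bp of each summit and was present at 0.690% of the 3478 thresholded promoter peaks. In SrpRalpha it covers chrX:11129065-11129072, 15 to 22 bp downstream of the start, in the orientation of the gene. The thresholded summit and that of replicate 1 fell inside the 8 bases, and those of replicates 2 and 3 were 6 and 12 bp away. The SrpRalpha peak was not strong among those with the element, at place 14 of 24 by signal, where the median was 385.

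None of the other bound genes had a full element at its summit. There the best match was 6 of the 8 letters at Srp72 and 5 at SrpRbeta, Srp54k, Srp68, Srp19 and Srp14, while 4.72% of all thresholded promoter peaks held at least 7 of 8. In the window from 250 bp before to 50 bp after the start, 0.373% of all genes had the full element, again with SrpRalpha alone of the 8. Of those genes, 46.2% were bound. These are matches of letters, and no match says only that the letters were not in the window.

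The other motifs were sparse at the same summits. TATCGATA lay within 50 bp of the Srp68 summit next to pix, the sequence printed above, and at 5.43% of all thresholded promoter peaks. Within 100 bp it was also found at the SrpRalpha and Srp14 summits (9.49% of promoter peaks). GACGTG, the core contained in the UPR element, was at the SrpRalpha summit only (3.28%). CACGTG, the E-box (1.27%), and TGACGTCA, the cyclic AMP response element (0.316%), were at none of the 8 summits. In the window from 250 bp before to 50 bp after the start, GACGTG was at SrpRalpha and Srp54k (5.84% of all genes). In that window CACGTG was at Srp19 (4.24%), TATCGATA at SrpRalpha and Srp14 (9.37%) and TGACGTCA at none of the 8 genes (0.437%).

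**Figure D4:**
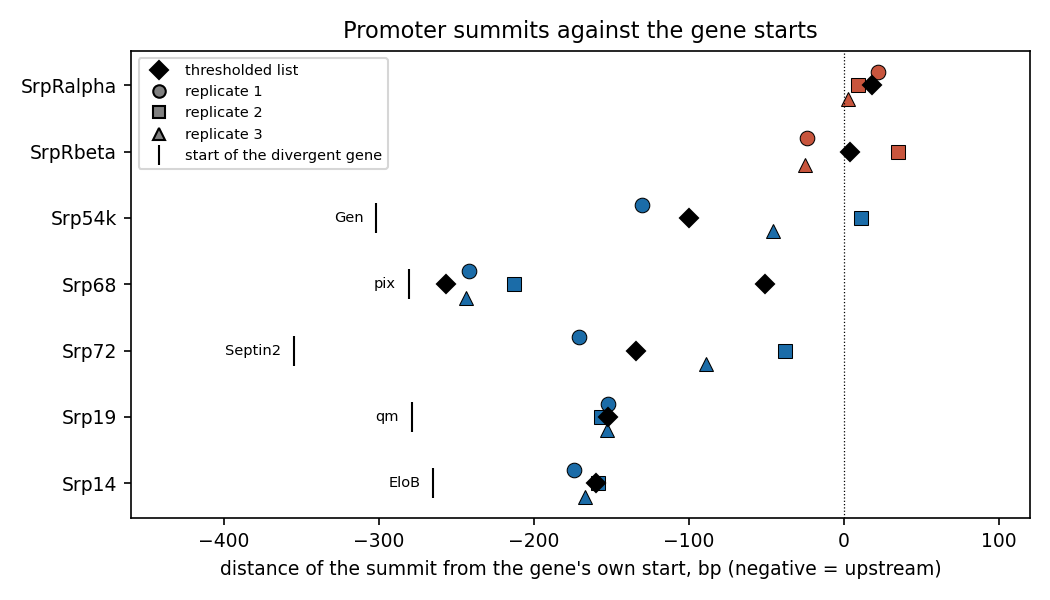
Distance in bp of each promoter summit from the start of its own gene (x axis, upstream negative) in the thresholded list (diamonds) and in the 3 replicates (other markers), with the start of the divergent neighbour as a vertical tick. Receptor summits (red) lie within 35 bp of the start, and those of Srp19 and Srp14 move little between replicates; the strongest Srp68 summits lie beside pix.

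The position of the summits also differed within the set. The promoter summits of the receptor genes, thresholded and the strongest in each replicate, were within 35 bp of their starts. Those promoter summits of the bound particle genes lay inside the gap between divergent starts, except in replicate 2 at Srp54k, where it was 11 bp inside the gene. Over the 8 promoter peaks the nearest start belonged to the named gene at 5, and over all 13 thresholded peaks in or within 2 kb of the genes at 6. These 2 counts stand without a share over all genes and only describe this set.

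The RNA of the particle and the steps that follow it were examined by lists of other genes. Neither 7SL RNA gene, 7SLRNA:CR32864 or 7SLRNA:CR42652, had a promoter peak, and 7SLRNA:CR42652 had a thresholded peak 1357 bp outside the gene with a signal of 441. Both genes encode the same kind of RNA, and whether reads from them were placed uniquely is unknown and was not tested. Srp54, the splicing factor, was not bound either: its own promoter held a pooled entry 1 bp from the start with a signal of 137 and a q-value of 0.00377, at rank 9149, past the end of the thresholded list. Within 2 kb of Srp54 there were thresholded summits 66 bp past the gene, near the start of yip2 (signal 539), and 946 bp upstream in an intron of Etl1 (signal 269).

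Downstream of the receptor, all 6 genes of the channel list were bound. The strongest were TRAM, a membrane protein that assists insertion (signal 2102, rank 111), and Trp1, the Sec62 homologue (signal 1779, rank 170). Both stood far above the receptor peaks of 349 and 318, and the median rank of the list was 9.77% of the thresholded list. Of the genes for signal peptide removal and the translocon-associated protein complex (TRAP), 6 of 9 were bound. They were led by Tapdelta, a TRAP subunit (signal 740), and CG5885, to which the annotation gives no role (signal 627). Spase12 and Spase25, subunits of the signal peptidase, were not bound. Their promoters held pooled entries past the end of the thresholded list, with q-values of 0.0148 and 0.00205.

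Routes beside the particle gave a mixed picture. Both genes of the nascent polypeptide-associated complex were bound, Nacalpha with a signal of 728 and bic with 212, and bic was not found in all 3 equally long lists. In the ER membrane complex, an insertase for membrane proteins, 6 of 10 genes were bound, led by EMC6 (signal 1464) and EMC5 (signal 500). EMC10 and EMC2A were among those not bound, and their best pooled promoter entries had q-values of 0.00139 and 0.167. Neither matched gene of the route for tail-anchored proteins was bound, neither CG1598, to which the annotation gives no role, nor Sgt. The best pooled promoter entries of CG1598 and Sgt had q-values of 0.0276 and 0.0977. Over these 5 lists 20 of 29 matched protein genes were bound, 69% with an exact interval of 49.2 to 84.7, beside the 30.4% of all protein-coding genes and the 87.5% of SRP and its receptor. The 30.4% joins head-to-head genes, at 52.7%, and others, at 19.3%, and the arrangement of the 29 genes was not examined. At the 22 promoter summits of the 20 genes, the UPR element was present at Sec61beta and SsRbeta, and TATCGATA at Sec63 and bic.

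**Figure D5:**
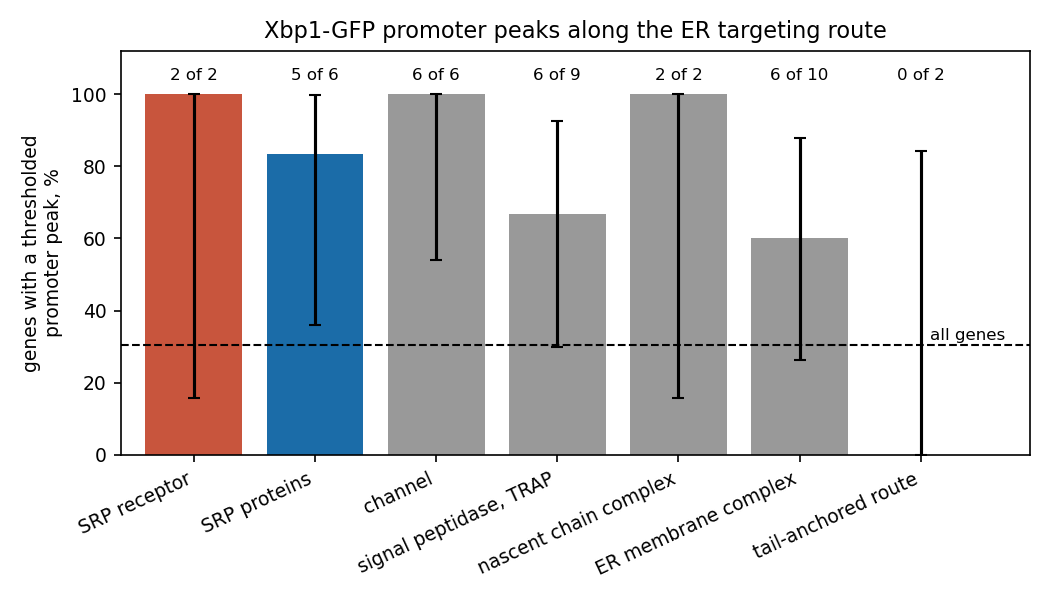
Share of genes with a thresholded promoter peak (y axis, percent) for the receptor, the particle proteins and 5 lists of genes in neighbouring steps, with the count above each bar and Clopper-Pearson exact 95% intervals for counting error. The dashed line is the share over all protein-coding genes, 30.4%; the shares reach from 0 of 2 in the tail-anchored route to 6 of 6 in the channel, and the intervals are wide because the lists are short. Among head-to-head genes, as the particle genes are, the share was 52.7%, counting starts up to 1000 bp apart.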

How the data were processed

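Xbp1-GFP ChIP-seq was measured in 3 biological replicates of 1 group. The authors deposited peak lists in dm6 and dm3, and the dm6 lists were used: 1 per replicate, 1 pooled, and 1 thresholded by the irreproducible discovery rate, which equals the 7291 strongest pooled peaks. Each peak has a signal value deposited by the authors, on a scale not stated, which was used only to rank and describe peaks within a list. Each peak also has a −log10 q-value and, among other columns, a summit offset, both deposited by the authors. Which aligner and which peak caller were used is not given in these sources. Per the labels, a control existed; it was not analysed here. The depth in reads is unknown. The replicate 2 list holds exactly 30000 entries and may be truncated.

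Summits were placed with Ensembl's release 115 of the BDGP6.54 genes on the dm6 sequence, and positions count from 1. Replicate lists were reduced to their 7291 strongest peaks. A gene's replicate value is its strongest summit within 500 bp of the start, so it can be another summit than the thresholded one. With 1 group there was no test between conditions: counts are given beside the share of all genes or promoter peaks by the same rule. Intervals are Clopper-Pearson exact 95% intervals. Genes and lists were chosen with earlier results of these data known. The genes named are the 8 genes, the genes with a start within 500 bp of their promoter summits, and from each pathway list the 2 bound genes of highest signal and up to 2 unbound genes, first by alphabet; other names were chosen after their values were seen. In the lists, 1 gene name (Bag6) had no match, and CG5885 and CG1598 were taken into the lists in place of TRAPalpha and Get3, which the annotation does not name, without a check of their function. Alternatives covered the promoter distance, the list, the window and each replicate left out. The procedures were tested on simulated data with planted promoters and motifs. Versions were pandas 2.3.3, SciPy 1.17.1, NumPy 2.4.6 and Matplotlib 3.10.9 under Python 3.11.15.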

Additional observations from a re-analysis of the deposited data

How the results depend on the processing

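The count of 7 bound genes was the same with a promoter distance of 200 bp (22.5% of all genes) or 1000 bp and in the pooled list at a q-value of 0.05 or less (39.8%). It was also 7 with the outermost start only and without any 1 replicate (24.6% to 26.2%). Most of these settings could not lower the count. The wider distance and the pooled list only add peaks, and each of the 8 genes has 1 annotated start. Leaving out 1 replicate kept the pooled peaks that overlapped both others, and the 8 promoter peaks overlapped all 3. Among the 3645 strongest thresholded peaks the count was 5, without Srp54k and SrpRbeta, beside 18.9% of all genes. The count in or near the gene was 2, the receptor genes, when the summit had to lie in the gene itself (15.8% of all genes), and 8 in the pooled list without a q-value limit, which adds background entries at Srp9; it was 7 otherwise. The count in all 3 replicates was 7 under every alternative, and 1 gene had the UPR element in every window and replicate. Where no share of all genes is given beside these counts, they only describe the 8 genes. The median over genes of the mean rank, 37.8%, moved between 35.9% and 42.9% when 1 replicate was left out and was 42.1% by q-value. For the pathway lists, with alternatives chosen after seeing the data, 17 to 25 of 29 genes were bound against 20. The 17 were among the 3645 strongest thresholded peaks (18.9% of all genes). The 25 were in the pooled list at a q-value of 0.05 or less (39.8% of all genes). No paired analysis was possible because there is only 1 group. The small number of genes and the unknown depth limit all shares, and the control would be needed to judge the weakest peaks.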

Other observations

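Among the 20 genes with TGACGTGG at a thresholded promoter summit and a promoter peak in all 3 equally long lists, a group defined after these data were seen, the ratio of the better rank in replicates 1 and 3 to the rank in replicate 2 had a median of 3.93 and ranged from 1.33 to 21.4. Over the 3317 such genes without the element the median was 0.88, with a range from 0.126 to 20.3, and 36.6% had a ratio above 1. The 20 are not independent, since KdelR and SmB, Mettl14 and Ostgamma, and CG1910 and nero share a peak. Gp93, the ER chaperone GRP94, had the highest ratio, at ranks 470, 22 and 490 in replicates 1, 2 and 3. KdelR, the receptor that returns ER proteins from the Golgi, stood at 691, 44 and 641. Sec24CD, a cargo-binding subunit of the COPII coat, stood at 3117, 464 and 3961, and ergic53, a cargo receptor for glycoproteins, at 2001, 219 and 1315. SrpRalpha was in place 9 of the 20, with 4.37. In the ER targeting route, SsRbeta (TRAP) had a ratio of 2.17 and Sec61beta, the channel subunit, 1.37. Genes with and without the element were not compared by a test, and the replicates carry no label that sets replicate 2 apart.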
